A study of Mus musculus with 12 samples.

Results

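Plet1, its antisense gene Plet1os, and 5 genes of the Ly6/uPAR family of surface proteins (Ly6e, Ly6d, Ly6g6c, Lypd3 and Plaur) were followed through 12 RNA libraries of mouse colonic epithelium. They are 7 of the 55304 gene symbols counted in each library. The genes were selected by symbol after an earlier look at these counts, for how the libraries labelled EHF IKO differed from the controls. Those differences are therefore given as values, and any count of calls among them is a description. Only the difference between the control groups is tested. The control values entered the selection too, so this test is not free of it. The libraries come from C57BL/6 mice aged 6 weeks, whose epithelium was released with EDTA and freed of smooth muscle, with 4 libraries in each of 3 groups. Control OIL mice are labelled wild-type, carry source names of the EVCER series and received sunflower oil. EHF IKO mice are labelled as an intestinal knockout of Ehf, carry source names of the same EVCER series and received tamoxifen. Control TMX mice are labelled wild-type, belong to the VilCreER (Villin CreERT2) line and also received tamoxifen. The Villin promoter drives this tamoxifen-activated Cre recombinase in intestinal epithelial cells, so other cell types in a preparation would keep Ehf. Control TMX therefore differs from Control OIL in line as well as in tamoxifen. EHF IKO differs from Control OIL in tamoxifen as well as in the knockout label, and from Control TMX in line as well. Neither comparison isolates the knockout. The alleles behind the EVCER name are not spelled out in the labels. Every library has a source number of its own, read here as 1 mouse, so the spread within a group is the spread between mice.

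Plet1 encodes a surface glycoprotein held in the outer membrane by a glycosylphosphatidylinositol (GPI) anchor. It marks epithelial progenitors in mouse skin and thymus, and in mouse colon it has been described as a target of interleukin 17 with a part in wound repair. Ly6/uPAR proteins share the LU domain, a compact fold pinned by disulfide bonds, and most of them are GPI-anchored too. Ehf encodes an epithelial transcription factor of the ETS family, whose members bind DNA around the core GGAA.

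The 250 bases before the RefSeq start sites of Plet1 and Ly6g6c are printed because these genes differed most, in opposite directions, between the EHF IKO and Control OIL libraries among the protein-coding genes of the set. Both sequences are RefSeq, build GRCm38.p6, plus strand: chr9:50494275-50494524 for Plet1 and chr17:35067075-35067324 for Ly6g6c. Capitals mark GGAA and its reverse complement TTCC, the longer ETS-type motif CGGAAG, and TATAAA.
Plet1: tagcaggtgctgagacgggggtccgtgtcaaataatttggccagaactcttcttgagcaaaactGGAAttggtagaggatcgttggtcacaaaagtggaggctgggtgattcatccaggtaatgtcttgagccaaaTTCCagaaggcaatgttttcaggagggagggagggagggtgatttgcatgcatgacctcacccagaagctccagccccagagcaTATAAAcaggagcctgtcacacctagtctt
Ly6g6c: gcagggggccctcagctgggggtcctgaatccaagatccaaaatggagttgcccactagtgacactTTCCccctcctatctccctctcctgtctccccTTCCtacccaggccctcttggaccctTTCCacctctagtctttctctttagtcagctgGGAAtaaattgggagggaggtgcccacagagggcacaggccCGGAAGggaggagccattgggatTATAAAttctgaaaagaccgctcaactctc
Motifs were searched on both strands, and CGGAAG overlaps the GGAA it contains. The Plet1 sequence held 2 GGAA cores, first bases 186 and 114 bases before the start site, and a TATAAA 30 bases before it. The Ly6g6c sequence held 5 GGAA cores, of which 1 lies within a CGGAAG 53 bases before the start site, and a TATAAA 30 bases before it. Neither sequence held GGAAGT. The core GGAA occurred in 93.4% of 32851 RefSeq promoter sequences of the same length, GGAAGT in 19.7%, CGGAAG in 13.6% and TATAAA in 12.4%. A GGAA core therefore does not set these promoters apart. The RefSeq start of Ly6g6c lies 1937 bases inside the gene as the counts define it.

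Depth and composition of the libraries bear on all values. Each library holds between 7421411 and 10344161 counted reads (median 8138352.5), with 10.69% to 26.33% from mitochondrial genes. In EHF IKO 2, 10.322% of the reads fell in 7 genes, called repeat-like here, against at most 0.113% in any other library. These genes were picked for having their highest share in EHF IKO 2, far above their median share. The name rests on that rule and not on annotation. That EHF IKO 2 is the highest therefore follows from the rule, and no other library was searched in this way. Epcam, the epithelial adhesion marker, averaged 951, 926 and 1016 CPM (reads scaled to the effective size of each library) in Control OIL, Control TMX and EHF IKO. Xist was between 1450 and 2305 CPM in replicates 1 and 2 of each group and at most 3.694 CPM in replicates 3 and 4, so each group holds both sexes. Ehf itself was at 428.4 ± 46.4 CPM (SD, n = 4) in Control OIL, against 345.0 ± 21.0 in Control TMX and 341.2 ± 30.1 in the libraries labelled EHF IKO. The whole-gene count of Ehf was not called between EHF IKO and Control TMX (log2 fold change -0.02 ± 0.11 SE, adjusted p = 0.972) or Control OIL (-0.33 ± 0.11, adjusted p = 0.159; edgeR's quasi-likelihood test, Benjamini-Hochberg). The labels do not say which exons the knockout removes, so this count does not check the group label.

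Plet1 was lower in the libraries labelled EHF IKO than in every control library. Plet1 (ENSMUSG00000032068, chromosome 9, 50494525 to 50505482, plus strand, Ensembl GRCm38) was at 75.7, 66.7, 35.5 and 39.9 CPM in Control OIL replicates 1 to 4. It was at 34.0, 37.1, 37.4 and 35.3 CPM in the Control TMX libraries. In the EHF IKO libraries it was at 13.0, 7.45, 10.4 and 4.30 CPM. The Control TMX values lie within a narrow band, Control OIL splits into a high pair and a pair close to Control TMX, and the highest EHF IKO value is below the lowest control value. Complete separation of this kind, with all 4 EHF IKO libraries below all 8 controls, occurred for 1.23% of the 15743 genes tested. The high pair in Control OIL are replicates 1 and 2, the libraries with high Xist; the same replicates are not the higher ones in Control TMX, and the part of sex was not tested. Group means were 54.5 ± 19.8, 36.0 ± 1.58 and 8.79 ± 3.77 CPM (SD, n = 4 each) in Control OIL, Control TMX and EHF IKO. Plet1 in EHF IKO was 6.14-fold below Control OIL (log2 fold change -2.62 ± 0.30 SE) and 4.06-fold below Control TMX (-2.02 ± 0.30).

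**Figure D1:**
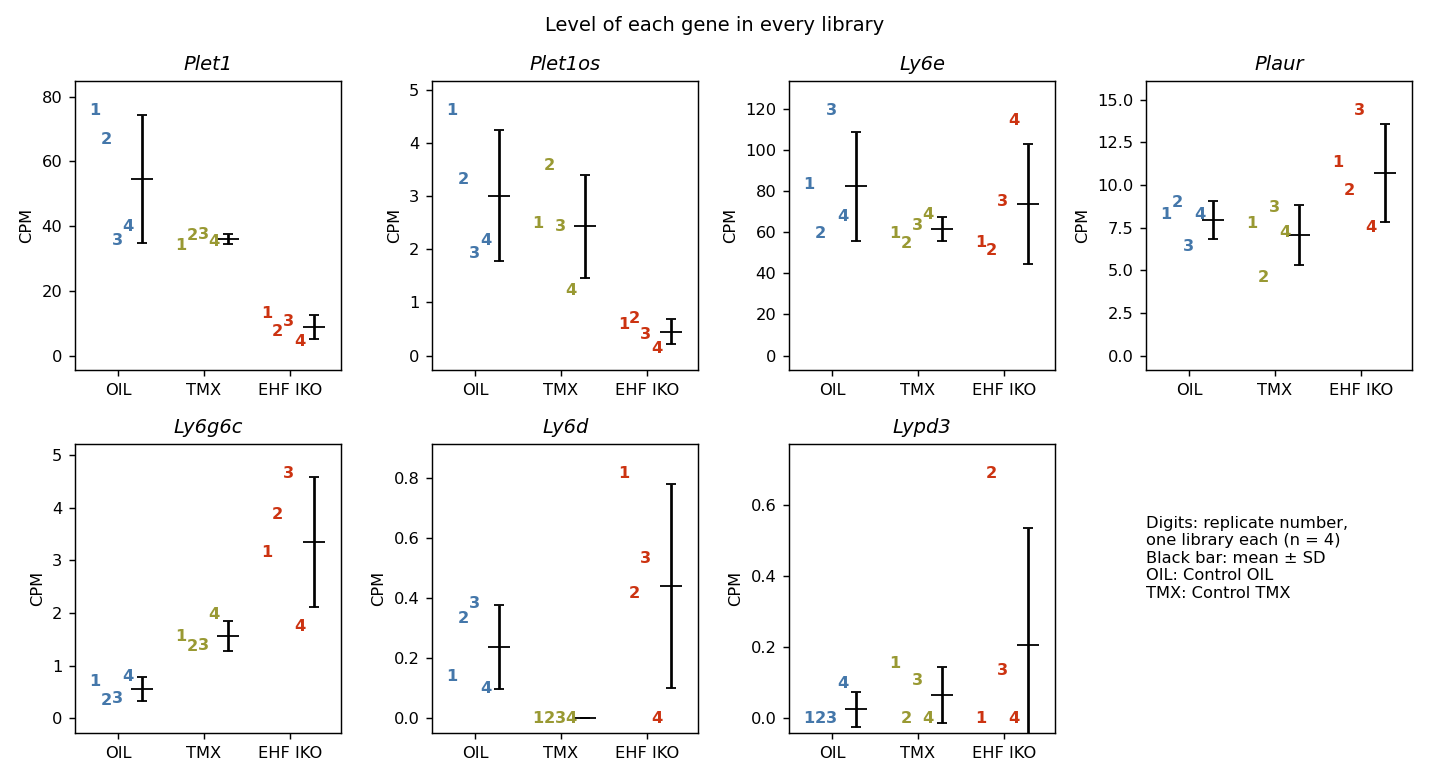
Level in CPM (vertical axes, linear) of each of the 7 genes in every library; digits are replicate numbers and black bars the mean ± SD of 4 libraries per group. The 4 EHF IKO values of Plet1, 4.30 to 13.0 CPM, lie below all 8 control values, and Ly6g6c runs the other way except in EHF IKO 4.

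In bulk RNA, fewer Plet1-expressing cells and less Plet1 RNA per cell cannot be told apart. The summed level of 12 surface colonocyte markers, none of them at 0 in all libraries, was 3416 to 4808 CPM in Control OIL, 4254 to 5749 in Control TMX and 3492 to 7072 in EHF IKO. None of the 12 was called by edgeR in EHF IKO against the mean of the controls, and 9 were higher there. The summed level of 12 colonic epithelium markers was 28330 to 48580, 43980 to 51290 and 33820 to 45970 CPM in the same order. The part of cell composition in the Plet1 level was not tested.

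Plet1os (ENSMUSG00000101304, chromosome 9, 50488795 to 50507823, minus strand), annotated as antisense RNA, spans the whole of Plet1 and showed the same order of groups at a far lower level. It was at 4.61, 3.32, 1.91 and 2.17 CPM in Control OIL and at 2.49, 3.58, 2.44 and 1.22 CPM in Control TMX. The EHF IKO libraries held 0.582, 0.690, 0.399 and 0.134 CPM, from 5, 5, 3 and 1 reads. No EHF IKO value reaches the lowest control value. The Plet1os level was 6.37-fold below Control OIL (log2 fold change -2.67 ± 0.47 SE) and 5.14-fold below Control TMX (-2.36 ± 0.48).

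Counting ignored strand, which matters for this pair. The genes share 261 exon bases, 13.4% of the Plet1 exon length and 21.0% of that of Plet1os, and reads that touch exons of both were counted for neither. A further 169 exon bases of Plet1os lie in introns of Plet1, where unspliced Plet1 RNA would be counted as Plet1os. The remaining 815 lie outside Plet1. Plet1os reads amounted to 5.47% of Plet1 reads in Control OIL (4.98% to 6.09% by library), 6.48% in Control TMX (3.44% to 9.67%) and 5.07% in EHF IKO (3.12% to 9.26%). The ratio overlapped between all 3 groups. Without strand, reads of Plet1os and reads of Plet1 from the other strand cannot be told apart.

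**Figure D2:**
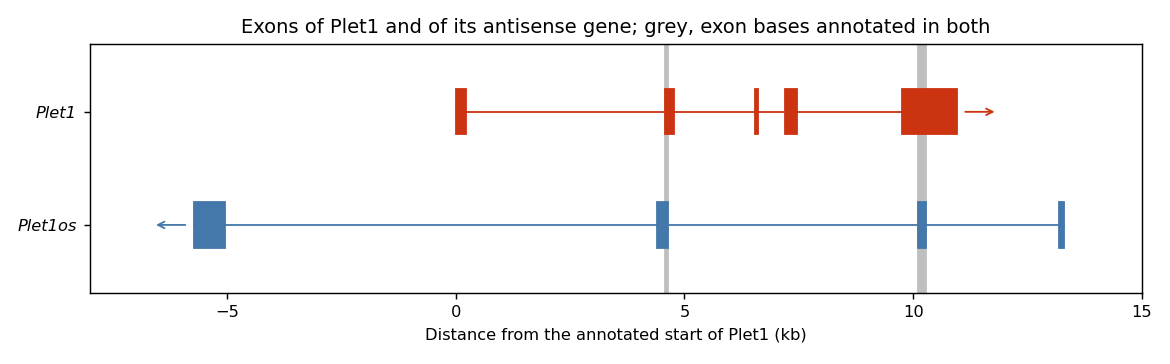
Exons of Plet1 (5 merged exons) and Plet1os (4 merged exons) by distance from the annotated start of Plet1 in kb; arrows give the direction of transcription and grey bands the 261 exon bases annotated in both. The first and last exons of Plet1os lie outside Plet1.

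Ly6g6c was higher in every library labelled EHF IKO than in any Control OIL library. It encodes a Ly6 protein from the Ly6 gene cluster of the major histocompatibility complex (ENSMUSG00000092586, chromosome 17, 35065388 to 35070050, plus strand). It was at 0.699, 0.332, 0.382 and 0.790 CPM in Control OIL, from 3 to 8 reads a library. In Control TMX it was at 1.55, 1.36, 1.38 and 1.96 CPM, and in EHF IKO at 3.14, 3.86, 4.66 and 1.75 CPM. EHF IKO 4 lies within the range of Control TMX. Each Control TMX library in turn lies above all Control OIL libraries. For separations of 4 libraries from 4, here and below, the share over all genes tested is not given. Ly6g6c in EHF IKO was 5.91-fold above Control OIL (log2 fold change 2.56 ± 0.38 SE) and 2.12-fold above Control TMX (1.08 ± 0.32, or 1.29 without EHF IKO 4). It shares 22 exon bases with Mpig6b on the other strand, whose mean was 1.82, 1.77 and 2.40 CPM in Control OIL, Control TMX and EHF IKO.

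Plaur (ENSMUSG00000046223, chromosome 7, 24462484 to 24475968, plus strand) encodes the GPI-anchored receptor of urokinase. It was at 8.24, 8.96, 6.37 and 8.29 CPM in Control OIL and at 7.77, 4.57, 8.69 and 7.20 CPM in Control TMX. In EHF IKO it was at 11.3, 9.66, 14.4 and 7.52 CPM. Replicates 1, 2 and 3 of EHF IKO exceed all controls, and replicate 4 lies among them. The log2 fold change of Plaur was 0.43 ± 0.22 SE against Control OIL and 0.60 ± 0.22 against Control TMX. The summed level of 12 fibroblast and matrix markers was 387.5 to 532.2 CPM in Control OIL, 531.9 to 919.2 in Control TMX and 553.0 to 1198 in EHF IKO. All 12 of these markers were higher in EHF IKO than in the mean of the controls, none was called and none was at 0 in all libraries; their part in the Plaur level was not tested.

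Ly6e (ENSMUSG00000022587, chromosome 15, 74955051 to 74959905, plus strand) encodes a GPI-anchored protein known to restrict coronavirus entry and, in the mouse placenta, to serve as the receptor of syncytin-A. Ly6e was at 83.3, 59.4, 119.5 and 67.8 CPM in the oil-treated controls and at 59.6, 54.6, 63.4 and 68.9 CPM in the tamoxifen-treated ones. The EHF IKO libraries held 55.0, 51.2, 74.9 and 114.7 CPM. The groups overlap throughout. The log2 fold change of Ly6e was -0.16 ± 0.25 SE against Control OIL and 0.26 ± 0.25 against Control TMX. Against the mean of the controls it was 0.05 ± 0.22, and ran from -0.24 without EHF IKO 4 to 0.19 without EHF IKO 2. The highest libraries, Control OIL 3 and EHF IKO 4, also have the lowest summed colonic epithelium markers, at 28330 and 33820 CPM. Epcam, which is in that sum, was not low in them, at 981 CPM in Control OIL 3 and 1049 CPM in EHF IKO 4. The sum therefore does not show that these libraries hold less epithelium. Control OIL 3 further holds 444 CPM of 12 myeloid markers, against 72.46 to 144.1 in the other 11 libraries. The part of these in the Ly6e level was not tested.

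The remaining members were close to the detection limit and had too few reads to enter the fit. Ly6d (ENSMUSG00000034634, chromosome 15, 74762056 to 74763620, minus strand), a marker of early B lineage progenitors that is also made by squamous epithelium, had 1, 3, 3 and 1 reads in Control OIL. It had no reads in any Control TMX library, and 7, 3, 4 and 0 in EHF IKO. A count of 0 in the 4 Control TMX libraries allows up to 3 reads over the group, or 0.0865 CPM. Pooled Ly6d levels were thus at least 2.71-fold higher in Control OIL and at least 5.26-fold higher in EHF IKO than that limit. The difference between the control groups had an exact two-sided permutation p of 0.0286 (4 against 4 libraries), the smallest this design allows. That p is unadjusted and is 1 of 2 such tests. Lypd3 (ENSMUSG00000057454, chromosome 7, 24636550 to 24641118, plus strand), which encodes a Ly6/uPAR protein of squamous epithelium, had 1 read in Control OIL, 2 reads in Control TMX and 6 in EHF IKO. Of those 6 reads, 5 came from EHF IKO 2. Its exact two-sided permutation p between the control groups was 0.429, and no level of Lypd3 exceeds its limit of 3 reads in either control group. Lypd3 shares 225 exon bases with the antisense gene Gm26550, which had 5 reads in all.

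**Figure D3:**
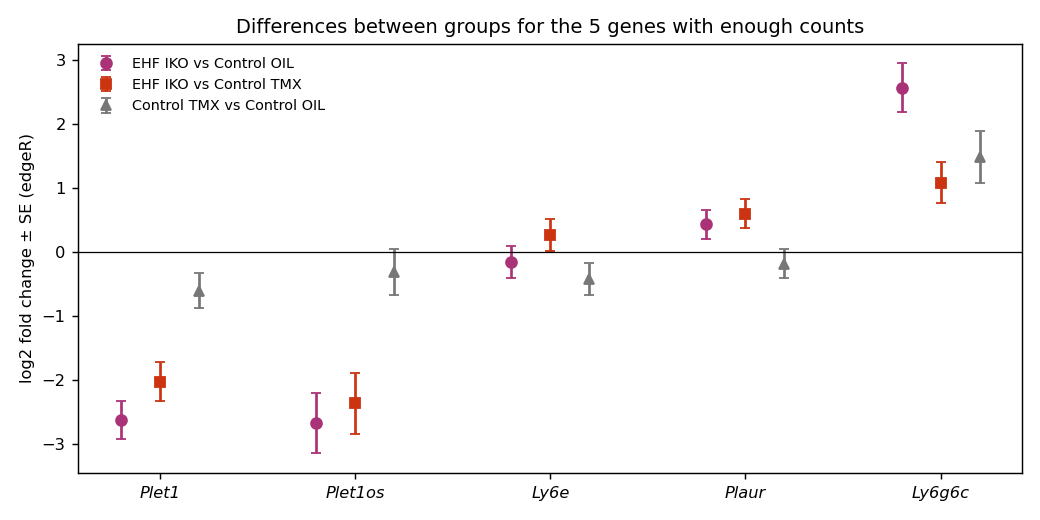
Log2 fold change ± SE from edgeR (vertical axis) of the 5 genes with enough reads for the fit, for EHF IKO against each control group and for Control TMX against Control OIL. Both EHF IKO points lie at or below -2.02 for Plet1 and Plet1os and at or above 1.08 for Ly6g6c.

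Of the 7 genes, 5 entered the fit over all 15743 genes tested. Between EHF IKO and Control OIL, 3 of these had an adjusted p under 0.05, 2 lower and 1 higher, where 1.68% of all genes tested were called. Against Control TMX it was 2, both lower, beside 0.800% of all genes, and against the mean of the controls 3, beside 1.72%. These counts follow from how the genes were selected and nothing is read from them. The 4 EHF IKO libraries lay below all 8 controls for Plet1 and Plet1os. The reverse occurred for 1.17% of genes tested and for none of the 7. These comparisons share the EHF IKO libraries, and the mean of the controls contains both control groups.

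The control groups were compared with a test, since this difference was not itself used to select the genes. The control values did enter that selection, so the test is not independent of it. A gene selected for an extreme Control OIL level would tend to differ here too. None of the 5 genes was called between Control TMX and Control OIL by edgeR's quasi-likelihood test, DESeq2 or limma-voom; in edgeR 0.0826% of all genes tested were called. At an unadjusted edgeR p under 0.05 there were 2, Plet1 and Ly6g6c. Counts at an unadjusted p are given here and below without the share over all genes tested, and nothing is read from them. The Plet1 level was 1.51-fold lower in Control TMX (log2 fold change -0.60 ± 0.27 SE; edgeR adjusted p = 0.38). The groups overlap. The Ly6g6c level was 2.79-fold higher in Control TMX (1.48 ± 0.40; edgeR adjusted p = 0.178). All 4 Control TMX libraries lay above all Control OIL libraries, and nothing is read from that separation without its share over all genes. The differences of Plet1os, Ly6e and Plaur were -0.31 ± 0.36, -0.42 ± 0.25 and -0.18 ± 0.22, with edgeR adjusted p of 0.759, 0.521 and 0.782.

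Levels between genes were compared per kb of exon. In both control groups Plet1 came first, with 28.0 ± 10.2 CPM per kb in Control OIL and 18.5 ± 0.810 in Control TMX, followed by Ly6e with 21.8 ± 7.02 and 16.3 ± 1.59. The libraries of Plet1 and Ly6e overlap in both. Plaur, Plet1os and Ly6g6c came next, at 3.04, 2.41 and 0.403 CPM per kb in Control OIL and 2.70, 1.95 and 1.14 in Control TMX. In EHF IKO the order was Ly6e at 19.5, Plet1 at 4.52, Plaur at 4.09 and Ly6g6c at 2.45 CPM per kb, and only the step from Ly6e to Plet1 separates all libraries among these. Ly6d, Plet1os and Lypd3 closed the EHF IKO order at 0.592, 0.363 and 0.125 CPM per kb. Over all 12 libraries the mean level per kb put Ly6e at the 88.7th and Plet1 at the 86.9th percentile of genes tested, Plaur at 45.5, Plet1os at 26.3 and Ly6g6c at 22.6.

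Likeness between genes was measured as Pearson r between deviations from the group means on the log2 CPM scale, over 12 libraries, and is given as a description, since all genes of a library share its depth and composition. Between members, Plet1 and Plet1os had r = 0.69 (0.55 without the 2 farthest libraries). Plet1 and Plaur had r = 0.57 (0.42), and Plet1 and Ly6e -0.62 (-0.28). Among 13987 genes, those most like Plet1 were Zfp821 (r = 0.94), Rassf3 (0.93), Peli3 (0.92), Als2cl (0.92) and Capzb (0.90). Their log2 fold changes in EHF IKO against the mean of the controls were 0.14, 0.25, -0.51, 0.11 and 0.14. Because r uses deviations from the group means, it holds no information on the group difference, and nothing is read from these fold changes. For Plet1os they included Zfr2 (0.96) and Xpa (0.94). For Ly6e, Rpl7l1 (0.97), Naf1 (0.96) and Mlec (0.95) came first, among 356 genes with r of at least 0.8. For Ly6g6c they were Grm4 (0.93), Arhgef10 (0.91) and Dsg3 (0.90), and for Plaur Supt6 (0.89), Pdgfra (0.89) and Pkhd1l1 (0.87). Without the 2 farthest libraries, r with Ly6g6c was 0.83, 0.79 and 0.85 in that order. With Plaur it was 0.9 for Supt6, but 0.67 for Pdgfra and 0.64 for Pkhd1l1.

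The rest of the Ly6/uPAR family gives the context for these genes. Of 44 further family genes listed, 42 had a read and 13 had enough for the fit. Only Cd177, a surface protein known from neutrophils, was called, and it was lower in each of the 4 comparisons. Cd177 was at 263.3 ± 51.2 CPM in Control OIL, 91.9 ± 10.7 CPM in Control TMX and 6.82 ± 1.87 CPM in EHF IKO (edgeR adjusted p = 6.51e-08 for EHF IKO against Control TMX and 0.002 between the controls). Without Cd177, 7 of the other 12 genes were higher in EHF IKO than in the mean of the controls and 5 lower, with a median log2 fold change of 0.08 beside 0.01 over all genes tested. None of these 12 was called in EHF IKO by edgeR, DESeq2 or limma-voom; at an unadjusted edgeR p under 0.05 there were 3 against Control OIL, 3 against Control TMX and 0 against the mean.

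By level, Lypd8, which encodes a GPI-anchored protein, shed into the lumen, that keeps flagellated bacteria off the colonic epithelium, stood far above the others. The level of Lypd8 was 2205 ± 245 CPM in Control OIL, 1911 ± 33.7 CPM in Control TMX and 2284 ± 62.7 CPM in EHF IKO. Ly6m was at 40.5 ± 15.1, 102.6 ± 54.8 and 118.9 ± 54.0 CPM, and its groups overlap. Ly6a, which encodes the stem cell antigen Sca-1, was at 73.4 ± 39.4, 26.9 ± 3.13 and 46.7 ± 4.07 CPM. Every Control TMX library lay below every Control OIL library for Ly6a (log2 fold change -1.44 ± 0.30 SE, edgeR adjusted p = 0.114), a difference that DESeq2 called. The share of all genes separated in this way is not given. Spaca4 was at 39.0 ± 9.14, 50.0 ± 11.9 and 35.8 ± 7.59 CPM. The Ly6g6c neighbours Ly6g6d and Ly6g6e were at 1.94 ± 0.447 and 3.70 ± 1.62 CPM in EHF IKO, with log2 fold changes of 0.42 ± 0.27 and -0.06 ± 0.25 against the mean of the controls (edgeR adjusted p = 0.618 and 0.972). They were picked out after their values were seen. Values of close paralogs, such as Ly6g with Ly6g2 and Ly6a with Ly6c1, are uncertain because reads that map to several places were left out.

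**Figure D4:**
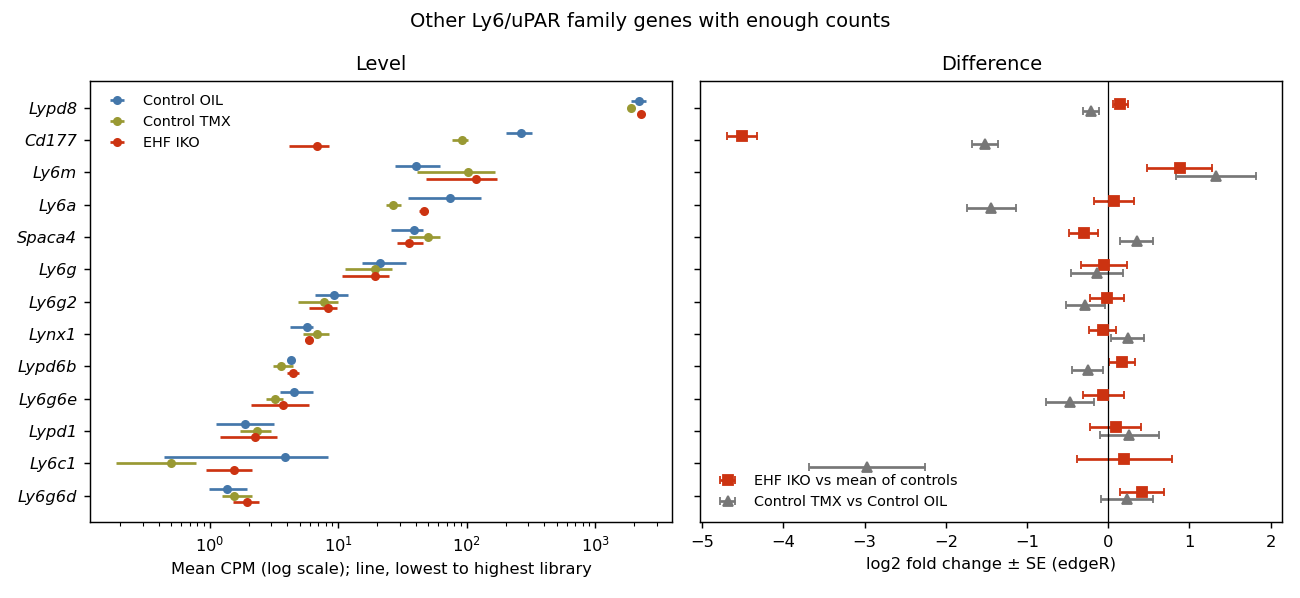
Left, mean CPM (log axis) of 13 other Ly6/uPAR family genes by group, with lines from the lowest to the highest library; right, log2 fold change ± SE for EHF IKO against the mean of the controls and for Control TMX against Control OIL. Cd177 alone lies far from 0 in the EHF IKO comparison, at -4.51.

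Genes of the systems these proteins work in were mostly not called. Of 28 genes of the urokinase system, the partners of Plaur, 17 were tested, and 14 were higher in EHF IKO than in the mean of the controls. The median log2 fold change was 0.24, beside 0.01 over all genes tested. Only Enpep was called there. It encodes aminopeptidase A, which is not an established partner of Plaur. The counts and the median include it, and none of the other genes tested was called there. Enpep was at 6.08 ± 2.61, 6.38 ± 2.24 and 16.1 ± 7.43 CPM in Control OIL, Control TMX and EHF IKO (log2 fold change 1.35 ± 0.31 SE, edgeR adjusted p = 0.0442, higher in 4 of 4 libraries). None of the 17 was called by edgeR in any other comparison, with 6, 6 and 3 at an unadjusted p under 0.05; DESeq2 called Enpep against each control group and Lrp1 between the controls, and limma-voom none. Plau, which encodes urokinase itself, was at 1.00, 1.07 and 1.19 CPM and too low to test.

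For genes that build, attach or trim GPI anchors, 38 symbols were listed. They matched 36 genes in the counts, since Pigy and Pigyl named the same entry and Pgap6 matched none. All 36 were tested, and edgeR called none in any comparison. At an unadjusted p under 0.05 there were 3 against Control OIL, 7 against Control TMX, 4 against the mean of the controls and 3 between the controls. The share of all genes tested at that p is not given. The highest levels were those of Tmem8, Pigt, Pign and Pgap1. Pgap1, the inositol deacylase that remodels new GPI anchors, was at 46.3 ± 8.93, 41.6 ± 12.3 and 68.0 ± 7.54 CPM and higher in every EHF IKO library than in any control. Its log2 fold change was 0.63 ± 0.15 against the mean of the controls (edgeR adjusted p = 0.0517), and DESeq2 called Pgap1 there and against Control TMX. limma-voom called none of the 36.

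Interleukin 17 response genes were examined because Plet1 is described as such a target. Of 33 listed, 22 were tested, and 13 were higher in EHF IKO than in the mean of the controls, with a median of 0.02. Il17re, a receptor subunit for interleukin 17C, was lower in EHF IKO, at 18.0 ± 1.10 CPM against 26.8 ± 4.21 and 29.9 ± 8.27 in Control OIL and Control TMX (log2 fold change -0.65 ± 0.16 SE against the mean of the controls, edgeR adjusted p = 0.0481, lower in 4 of 4 libraries). DESeq2 called Il17re there too, and limma-voom did not. Duoxa2, the maturation factor of dual oxidase 2, was higher by the same comparison (0.93 ± 0.18, edgeR adjusted p = 0.0164). Nos2, which encodes inducible nitric oxide synthase, and Duoxa2 were low in Control TMX alone. Nos2 was at 34.5 ± 4.70, 5.84 ± 2.96 and 28.1 ± 8.20 CPM and Duoxa2 at 18.6 ± 1.85, 6.29 ± 1.69 and 20.6 ± 6.05 CPM. Both were called lower in Control TMX than in Control OIL (edgeR adjusted p = 0.00404 and 0.0129) and higher in EHF IKO than in Control TMX (0.00232 and 0.00183). Any link between these genes and the Plet1 level was not tested. Against Control OIL edgeR called none of the 22, with 4 at an unadjusted p under 0.05, limma-voom none, and DESeq2 Reg3b.

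Squamous genes stood beside Ly6g6c, Ly6d and Lypd3. Of 34 squamous genes listed, 15 were tested. Against the mean of the controls 10 were higher in EHF IKO and 5 lower. Their median log2 fold change was 0.16, beside 0.01 over all genes tested. Dsg3 and Sfn were called higher by edgeR in EHF IKO than in Control OIL and than in the mean of the controls. Dsg3, a desmosomal cadherin of stratified epithelium, was at 0.818 ± 0.284, 1.43 ± 0.255 and 3.23 ± 1.41 CPM (log2 fold change 1.55 ± 0.30 SE against the mean of the controls, edgeR adjusted p = 0.0168), with EHF IKO 4 the lowest of its group. Sfn, which encodes stratifin, was at 66.0 ± 8.82, 71.6 ± 3.67 and 91.8 ± 12.5 CPM (0.42 ± 0.10, edgeR adjusted p = 0.0411). DESeq2 called both in the same comparisons, and limma-voom called Dsg3 but not Sfn. None of the 3 tools called either against Control TMX. The summed level of 14 squamous marker genes was 10.48 to 13.23 CPM in Control OIL, 10.56 to 16.19 in Control TMX and 9.134 to 21.25 in EHF IKO, where EHF IKO 2 is the highest and EHF IKO 4 the lowest. Of these 14, 6 were tested, 3 were higher in EHF IKO than in the mean of the controls, 1 was called higher and none was at 0 in all libraries. Krt10, Col17a1 and Sbsn were lower there (log2 fold change -0.13 ± 0.27, -0.24 ± 0.30 and -0.52 ± 0.29 SE), and none was called. Lor had 8, 9 and 4 reads and Krt4 had 3, 2 and 1 in Control OIL, Control TMX and EHF IKO. Of the defining markers, Krt5 had 4 reads, all in EHF IKO 2, and Trp63 had 10 reads in EHF IKO 2 and 1 in Control TMX 1. EHF IKO 2 is also the library with 5 of the 9 reads of Lypd3. Other markers did not follow that library alone. Krt14 was highest in EHF IKO 3, with 26 reads, and Krt15 in EHF IKO 3 and 1, with 18 and 20 reads. Krt13 had 10, 9, 3 and 1 reads in EHF IKO replicates 1 to 4. The part of squamous cells in the levels of Ly6g6c, Ly6d and Lypd3 was not tested.

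**Figure D5:**
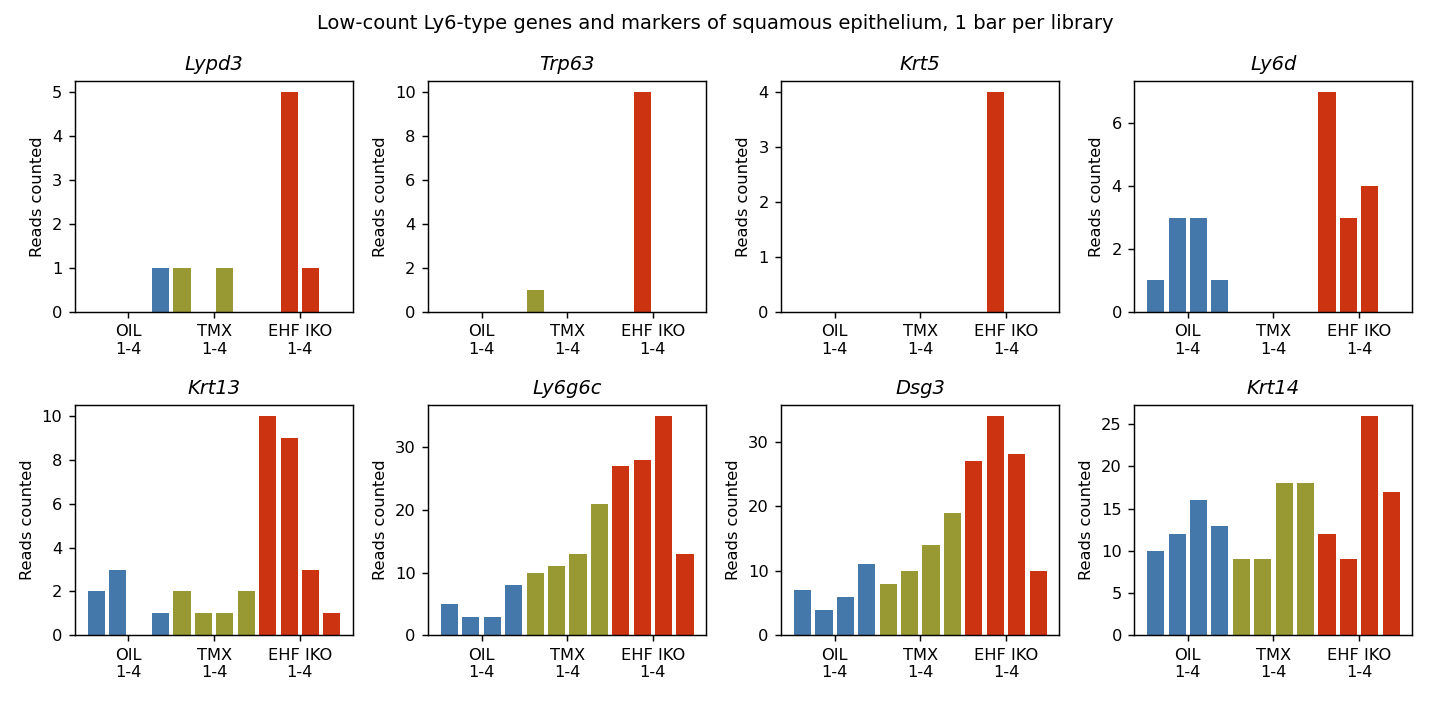
Reads counted per library (vertical axes, linear, 1 bar per library in the order replicate 1 to 4 of Control OIL, Control TMX and EHF IKO) for Lypd3, Ly6d, Ly6g6c and 5 squamous genes. Lypd3, Trp63 and Krt5 peak in EHF IKO 2, with 5, 10 and 4 reads, while Ly6g6c and Dsg3 are spread over EHF IKO 1 to 3. Krt10, Col17a1 and Sbsn, lower in EHF IKO than in the mean of the controls, are not drawn.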

How the data were processed

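Whole-gene read counts per library were deposited by the authors, who, per the file headers, ran featureCounts 1.6.1 on exons of Ensembl GRCm38 release 98, grouped by gene name and without regard to strand. No option for multi-mapping or multi-overlapping reads is set, so reads in several places or in more than 1 gene were left out. STAR is named as a tool in the submitters' processing notes, with no version.

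Here the counts were scaled by TMM and given as CPM, the usual counts per unit of effective library size. Group differences were fitted over all 12 libraries with edgeR 4.0.16 (quasi-likelihood, robust, R 4.3.3), after edgeR's filter on low counts, for 15743 genes; p-values were adjusted by Benjamini-Hochberg over all of them and called under 0.05. The common biological coefficient of variation was 18.3%. DESeq2 1.42.0, limma-voom (limma 3.58.1), other filters and scalings, a replicate block and leaving out each library were alternatives. The fitting code was tested on simulated data. Ly6d and Lypd3, below the filter, were compared by exact permutation of libraries. A limit from a count of 0 is 3 reads over a group and covers counting error only.

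The 7 genes and the 5 lists of other genes were chosen with earlier results of these data known. Genes named from a list are those called in the comparison, and otherwise up to 4 with the highest mean CPM. The squamous markers with few reads fall outside this rule. Likeness used genes of mean log2 CPM of at least 1 and named 5 for Plet1 and 3 for the others, of which 1 for Plet1os is not reported here. Ensembl IDs come from GENCODE M21, whose spans match the files for all 7. No libraries held identical counts (smallest chi-square per gene 9.79).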

Additional observations from a re-analysis of the deposited data

Results flagged for a closer look

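Lypd3 in Control OIL replicate 4, at 0.0987 CPM, stood far from the other libraries of its group, all at 0. The value rests on 1 read. The gap between the extreme library and its neighbours was examined in 23 sets of 4 libraries. Chance alone flags about 1 in 20 sets of normally spread values. That rate does not apply to the Lypd3 set, where any read in 1 library beside counts of 0 gives a flag.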

How the results depend on the processing

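The log2 fold changes of the 5 tested genes moved by less than the spread between replicates under every alternative run, and none of them was called between the control groups under any. For Plet1 against the mean of the controls the range was -2.58 to -2.10. The calls against Control TMX did move. Plet1 was called there under every alternative. Plet1os was not called with limma-voom, with the compared groups alone, without Control TMX 1, 2 or 3, or without any 1 EHF IKO library. Ly6g6c was called there without EHF IKO 4, and Ly6d with no filter. The genes were selected for their EHF IKO differences, so these calls are a description and nothing is read from them. The share of all genes called under each alternative is not given.

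Counts over all genes moved more, given here as genes called higher and lower. Against Control OIL, 145 and 120 became 435 and 289 with no filter, 316 and 218 with DESeq2, 56 and 56 with the compared groups alone, and 92 and 81 with a replicate block. Leaving out 1 library gave 53 to 453 and 50 to 258. Against Control TMX, 52 and 74 became 198 and 302 with no filter, 124 and 181 with DESeq2, 32 and 40 with the block, and 19 to 80 and 31 to 82 by leaving out 1 library. Against the mean of the controls, the 270 called in all, as many higher as lower, became 525 and 306, 251 and 220, and 77 and 71 in the same order, and 55 to 310 and 53 to 212 by leaving out 1 library. Between the controls, 6 and 7 became 270 and 171 with no filter and 121 and 75 with DESeq2. There, 0 were higher with a mean log2 CPM of at least 1 and 1 with limma-voom, and leaving out 1 library gave 0 to 44 and 3 to 42. The highest counts came without EHF IKO 4, except for genes lower between the controls, where it was Control OIL 2. The lowest came without EHF IKO 3, EHF IKO 1, Control TMX 3 or Control TMX 2.

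In the rest of the Ly6/uPAR family, Cd177 was the 1 gene called in each comparison. With no filter it was 2 against Control OIL and between the controls (Ly6c1), 3 against Control TMX (Ly6c1 and Spaca4) and 2 against the mean (Lypd6). With the compared groups alone it was 2 against Control TMX (Ly6a). Between the controls it was 2 with DESeq2 (Ly6a), and 1 to 3 by leaving out 1 library (Ly6a and Ly6c1 without Control OIL 2). The cause was not tested.

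Whether replicate numbers pair the libraries is not settled by these values. Same-numbered libraries correlated at -0.406 to 0.405 in their deviations, over 0.1 in 5 of 12 pairs. Of the 12 libraries, 6 correlated best with their own number, and the count expected by chance is not given. Replicate number goes with Xist in every group, so same-numbered libraries also share sex. Depth limits Ly6d and Lypd3, with 22 and 9 reads in all.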
